A study of Homo sapiens with 24 samples.

Results

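The genes described here act at replication forks and DNA breaks and lie on human chromosome 1. They are the origin and S-phase factors ORC1, CDC7 and DTL, the single-strand DNA binding subunit RPA2, and the repair factors EXO1, USP1, PARP1 and RAD54L. They were chosen by function and chromosome from a written list of 8 genes, and 7 of the 8 have a row among the 11579 rows of the deposited expression table. RAD54L has no row and was not analysed here. The table was made from 24 libraries, 8 groups of 3, all of HEK293, an established line derived from human embryonic kidney. Cells were untransfected, or were transiently transfected with the empty vector pCMV-flag, with flag-tagged wild-type EVI1 (EVI1-WT) or with EVI1-AQA, in which both serines of the carboxy-terminal SQS motif are replaced by alanine so that they cannot be phosphorylated. Each of these 4 transfection states was either left untreated or exposed to 150 µM H2O2 for 8 h. EVI1 was driven by a viral promoter in cells of one line, so each group is a model of forced, short-lived expression. The labels' growth protocol also describes luciferase reporter plasmids in the transfection, and whether the sequenced cells received them was not given in the sources used here.

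A human cell licenses each replication origin once per cycle. The origin recognition complex, of which ORC1 is the largest subunit, loads the replicative helicase in G1, the kinase CDC7 then triggers origin firing, and DTL (also called CDT2) directs the CRL4 ubiquitin ligase to licensing factors during S phase and after damage. Single-stranded DNA exposed at forks and breaks is coated by RPA, whose middle subunit is RPA2. EXO1 is an exonuclease of mismatch repair and of break end resection, USP1 removes ubiquitin from FANCD2 and PCNA, PARP1 attaches poly(ADP-ribose) to proteins at breaks, and RAD54L is a motor protein of homologous recombination. H2O2 oxidises bases and breaks DNA strands. Several of these genes are known targets of E2F factors, which activate transcription at the entry into S phase.

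The promoters of 4 of the genes are shown: ORC1, EXO1 and DTL, which carry differences described below, and CDC7, an S-phase gene that did not pass the test. USP1 and RPA2, which also carry differences, are left out. The promoters shown are RefSeq sequences of GRCh38.p14, from 150 bases before to 20 bases after an annotated start, written 5′ to 3′ on the gene's strand. Capitals mark matches to the motifs named after the sequences. ORC1 lies at chr1:52404404-52404573 on the minus strand, EXO1 at chr1:241848054-241848223 on the plus strand, DTL at chr1:212035598-212035767 on the plus strand and the second annotated start of CDC7 at chr1:91500962-91501131 on the plus strand.
ORC1: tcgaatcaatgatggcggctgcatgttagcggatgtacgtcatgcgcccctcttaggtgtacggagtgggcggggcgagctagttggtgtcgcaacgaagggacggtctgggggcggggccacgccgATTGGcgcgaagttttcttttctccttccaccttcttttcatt
EXO1: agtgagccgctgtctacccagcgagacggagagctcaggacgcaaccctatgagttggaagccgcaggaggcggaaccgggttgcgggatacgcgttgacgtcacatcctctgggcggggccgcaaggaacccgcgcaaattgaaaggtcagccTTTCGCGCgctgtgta
DTL: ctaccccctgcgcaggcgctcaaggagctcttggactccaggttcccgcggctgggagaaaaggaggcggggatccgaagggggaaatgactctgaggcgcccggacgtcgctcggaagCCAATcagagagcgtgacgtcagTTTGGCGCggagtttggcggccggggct
CDC7: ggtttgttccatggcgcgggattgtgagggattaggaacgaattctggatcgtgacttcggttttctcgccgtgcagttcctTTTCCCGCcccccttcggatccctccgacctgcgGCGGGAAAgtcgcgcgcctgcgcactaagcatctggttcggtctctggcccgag
Windows of 250 bases before to 50 bases after each start were searched on both strands. The E2F letters TTTCCCGC, TTTGGCGC, TTTCGCGC or TTTGCCGC occurred in 3.31% of 35116 promoters. Counting from the start, with bases before it negative, DTL held TTTGGCGC from position -8, EXO1 held TTTCGCGC from position 5, and CDC7 held TTTCCCGC from position -68 and, on the other strand, from position -34 of its second start. The first annotated start of CDC7, not shown, held none of the letters searched. ORC1 held none of these E2F letters, and neither did PARP1 or either start of USP1 or RAD54L. Only exact letters were searched, so a near match, such as ATTGGCGC in ORC1, was not counted. The ORC1 window had CCAAT on the other strand from position -23, a motif that 34.6% of promoters hold and that DTL also held, from position -31. Of the letters bound by EVI1, AGATAAG (2.68% of promoters) and GACAAGATA (0.0968%) for its first zinc finger domain and GATGAG (12%) for its second, none was in the ORC1, DTL or CDC7 windows. AGATAAG was found at the second annotated start of EXO1, from position -150, and GATGAG on the other strand in RAD54L, from position -16 of its first start. The cell cycle letters TTTGAA (15.2%) and TTCGAA (1.45%) were looked for too, and only the second start of USP1 among these genes had one, TTTGAA. A match is a description of these windows and not a binding site. No window was given for RPA2.

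Values are log2 expression after the authors' normalization, and every row has a mean of 0 within each batch of 8 libraries, where a batch is what the labels call the libraries of one replicate number. A value therefore compares a library with the other 7 of its batch and says nothing of an absolute level. Sequencing depth is not known either, and the cell line could not be checked against marker levels. In such bulk samples, fewer cells of a kind and less RNA per cell cannot be told apart. Differences were tested with limma over all 11579 rows, in a fit of the 8 group means, with p-values adjusted by Benjamini-Hochberg, and a gene is said to rise or fall only at an adjusted p under 0.05. The labels do not say that replicates came from separate cultures, so p-values measure the spread between these libraries, and with 3 against 3 libraries an exact permutation test of one gene could not go below p = 0.1. Of the coding genes of chromosome 1, 50.7% have a row against 2.39% of its other genes, whereas over chromosomes 2 to 22 the shares were 19.3% and 16.4%, so row names followed the coding genes more closely on chromosome 1. The gene that encodes EVI1 was not analysed here. In the row labelled CACNB3, which split the libraries with EVI1 from those without in all 12 untreated samples, 3 libraries with H2O2 departed from their labels: empty vector replicate 2 (4.36), EVI1-WT replicate 2 (-4.38) and EVI1-AQA replicate 1 (-2.60). Results that use them are given without these 3 libraries too where that ends or makes a call or moves a response by over 1.5 times, and for the averages over transfection states.

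Across the 8 groups, the limma F-test called ORC1 (adjusted p = 0.00261), EXO1 (adjusted p = 0.0298) and USP1 (adjusted p = 0.0302), 3 of the 7 genes, where 18.4% of all rows were called. With the replicate number as a block, ORC1 alone was called (adjusted p = 0.0122), against 7.87% of all rows. Leaving out any one replicate left 0 of the 7 called. ORC1 and EXO1 were the most variable of the 7, with an SD over the 24 libraries of 0.30 each, a little above the median row (0.27). RPA2 (0.12) and PARP1 (0.14) were the steadiest, and only 1.74% and 4.58% of rows had a smaller SD.

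**Figure D1:**
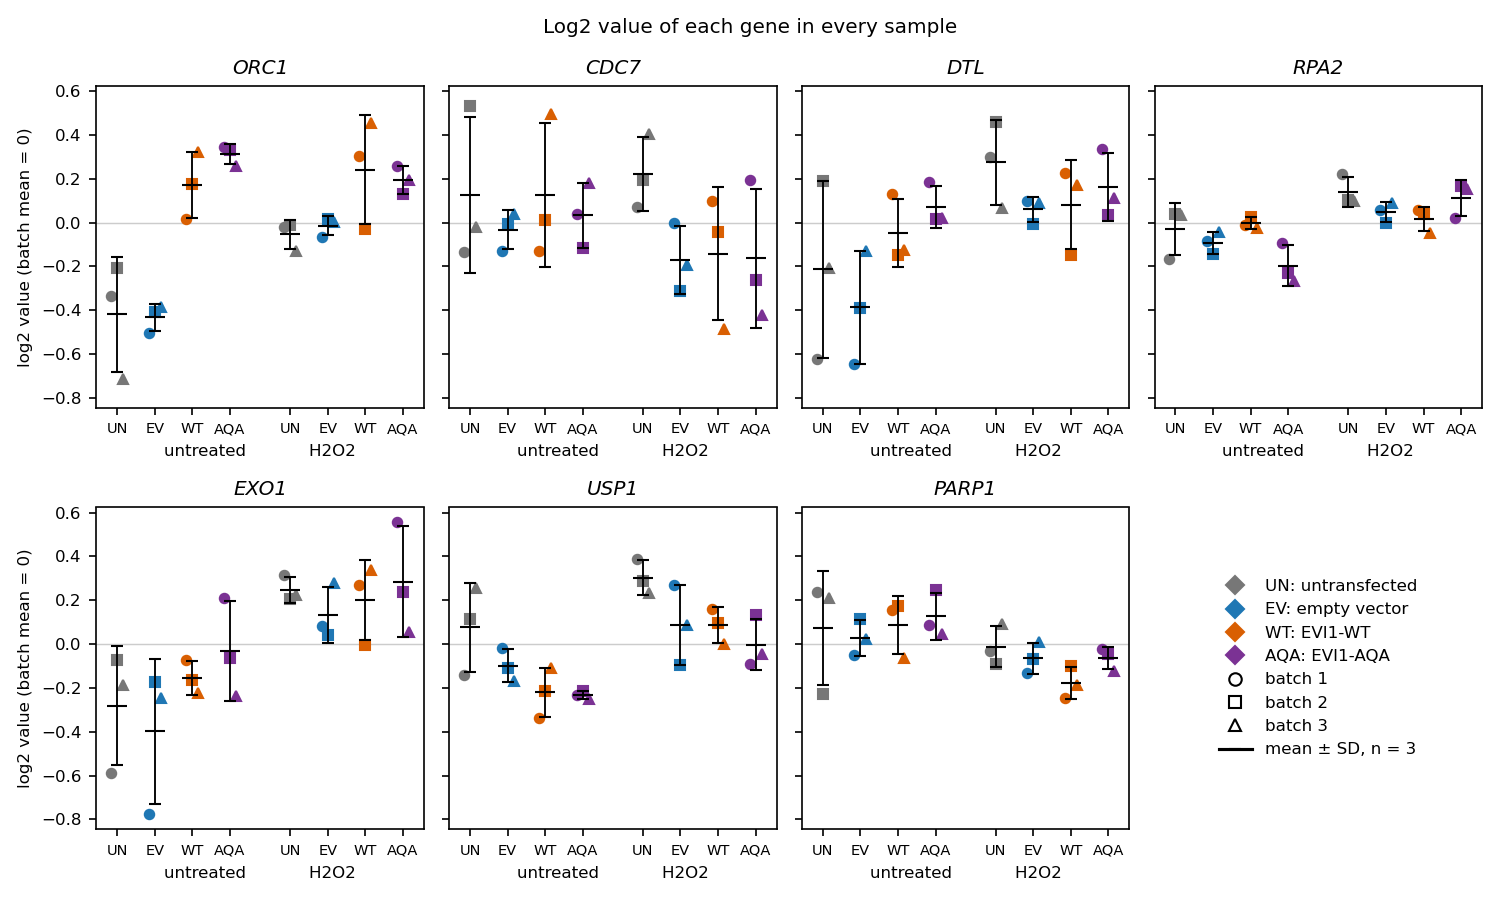
Log2 value, relative to the batch mean, of each of the 7 genes in all 24 libraries. Colours are transfection states, symbols are batches and bars are the mean ± SD of 3. ORC1 of untreated untransfected and empty vector cells sits between -0.71 and -0.21, below every other library.

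After H2O2, EXO1, DTL, USP1 and RPA2 rose. Averaged over the 4 transfection states, 4 of the 7 genes rose, 0 fell and 3 did not pass the test, where 8.9% of all rows rose and 7.63% fell (16.5% called in all). With the replicate block 3 of the 7 rose, where 12.3% of all rows were called in either direction. The median difference of the 7 genes was 0.18 on the log2 scale, beside 0.0016 over all rows.

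EXO1 (ENSG00000174371, GRCh38 chromosome 1, 241847967 to 241895148, plus strand) rose most. In untreated cells its log2 values in batches 1, 2 and 3 were -0.59, -0.072 and -0.19 without transfection, -0.78, -0.17 and -0.25 with empty vector, -0.072, -0.16 and -0.23 with EVI1-WT, and 0.21, -0.066 and -0.24 with EVI1-AQA. With H2O2 they were 0.32, 0.20 and 0.22, then 0.081, 0.040 and 0.28, then 0.27, -0.0062 and 0.34, and 0.56, 0.24 and 0.056 in the same order. The untreated and H2O2 values did not overlap within untransfected, empty vector or EVI1-WT cells, and with EVI1-AQA they did. Such separation within a transfection state, in either direction, also occurred for DTL, USP1, RPA2, ORC1 and PARP1. Its share over all rows was not counted. In another comparison of 3 against 3, untreated EVI1-AQA with empty vector, 11.2% of all rows were separated upward and 10.7% downward. The average difference was 0.43 (SE 0.086, limma adjusted p = 0.00229, a ratio of 1.35), and EXO1 was higher in 12 of 12 same-batch pairs, which 1.29% of all rows were. Batch 1 gave the largest difference (0.61), followed by batch 3 (0.45) and batch 2 (0.24). Without the 3 departing libraries the difference was 0.44 (limma adjusted p = 0.00533).

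DTL (ENSG00000143476, 212035553 to 212107400, plus strand) had its lowest values in batch 1 of the same groups as EXO1. Its untreated values were -0.62, 0.19 and -0.21 without transfection, -0.64, -0.39 and -0.13 with empty vector, 0.13, -0.15 and -0.12 with EVI1-WT, and 0.18, 0.015 and 0.020 with EVI1-AQA. Its values with H2O2 were 0.30, 0.46 and 0.069, then 0.097, -0.0052 and 0.090, then 0.22, -0.15 and 0.17, and 0.33, 0.034 and 0.11. DTL was higher with H2O2 in 11 of 12 pairs and equal in the EVI1-WT pair of batch 2. The share of all rows with 11 of 12 pairs in one direction was not counted, here or for the genes below. The average difference was 0.29 (SE 0.087, limma adjusted p = 0.0277), and 0.30 without the 3 libraries (adjusted p = 0.0434). By state it was 0.49 in untransfected and 0.45 in empty vector cells, beside 0.13 with EVI1-WT and 0.088 with EVI1-AQA. The responses with EVI1-WT and EVI1-AQA did not differ from that of empty vector past the threshold (-0.32 and -0.36, limma adjusted p = 1.00 and 0.545). The DTL response without the 3 libraries was 0.25 with EVI1-WT and 0.0013 with EVI1-AQA.

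USP1 (ENSG00000162607, 62436297 to 62451804, plus strand) rose by 0.24 on the log2 scale (SE 0.060, limma adjusted p = 0.0108), in 11 of 12 pairs. Untreated values were -0.14, 0.11 and 0.26 without transfection, -0.020, -0.11 and -0.17 with empty vector, -0.34, -0.21 and -0.11 with EVI1-WT, and -0.23, -0.22 and -0.25 with EVI1-AQA. With H2O2 they were 0.39, 0.29 and 0.23, then 0.27, -0.095 and 0.086, then 0.16, 0.097 and -0.0013, and -0.090, 0.13 and -0.047. Untransfected cells with H2O2 held the highest USP1 value. Within EVI1-WT and EVI1-AQA cells all treated values lay above all untreated ones, a separation whose share over all rows was not counted. Untreated EVI1-WT and empty vector cells, also 3 against 3, were separated upward in 7.31% of all rows and downward in 6.7%. The responses by state were 0.23, 0.19, 0.31 and 0.23 in the same order. Without the 3 libraries the average was 0.27 (adjusted p = 0.0126).

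RPA2 (ENSG00000117748, 27891524 to 27914746, minus strand) rose by 0.16 (SE 0.049, limma adjusted p = 0.0297), a call that the replicate block ended (adjusted p = 0.0633). The untreated values were -0.17, 0.041 and 0.036 without transfection, -0.084, -0.15 and -0.045 with empty vector, -0.0094, 0.027 and -0.023 with EVI1-WT, and -0.091, -0.23 and -0.27 with EVI1-AQA. With H2O2 they were 0.22, 0.11 and 0.098, then 0.057, -0.0020 and 0.091, then 0.056, 0.039 and -0.048, and 0.020, 0.17 and 0.16. In batches 2 and 3, EVI1-AQA cells held both the lowest untreated and the highest treated RPA2 values. RPA2 was higher in 11 of 12 pairs, and the average without the 3 libraries was 0.17 (adjusted p = 0.0457). Leaving out any one replicate ended the calls of RPA2 (limma adjusted p from 0.136 to 0.191) and DTL (0.0640 to 0.244), leaving out replicate 1 or 2 ended that of USP1 (0.173 and 0.0962), and EXO1 passed each time.

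The other 3 genes did not pass the test. ORC1 averaged 0.18 (SE 0.067, limma adjusted p = 0.0615), higher in 8 of 12 pairs. PARP1 (ENSG00000143799, 226360210 to 226408154, minus strand) went the other way, with -0.16 (SE 0.061, adjusted p = 0.0786) and lower values in 11 of 12 pairs, between -0.40 and -0.013, the exception being untransfected cells of batch 2 (0.13). CDC7 (ENSG00000097046, 91500851 to 91525764, plus strand) averaged -0.13 (SE 0.10, adjusted p = 0.412), with pairs from -0.98 to 0.42, and was the one gene of the 7 whose batches disagreed in sign, at 0.18, -0.21 and -0.35. Without the 3 libraries the adjusted p-values of these 3 genes were 0.0563, 0.114 and 0.317. Gene by gene, an exact permutation test of the 12 pair signs gave p = 0.000488 for EXO1, the smallest that 12 pairs can give. This exact permutation test gave p = 0.000977 for DTL, 0.00146 for both USP1 and RPA2, and 0.00439 for PARP1. For ORC1 and CDC7 the exact permutation test gave p = 0.0400 and 0.303, with no adjustment for the 7 tests. The test treats the 12 pairs as independent, but they are 4 transfection states in each of 3 batches. Pairs of one batch may share their response, so these p-values can be too small. A test with the batch as the unit was not run.

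Within single transfection states none of the 7 genes passed the adjusted test, where 0.389% of all rows did in untransfected, 2.0% in empty vector, 0.475% in EVI1-WT and 2.02% in EVI1-AQA cells. At an unadjusted p under 0.05, the threshold the study used for pairs of groups, DTL, EXO1 and ORC1 were higher with H2O2 in untransfected cells (3 of 7, against 8.41% of all rows, or 15.4% in either direction) and in empty vector cells (3 of 7, against 9.41%, or 17.5% in either direction). In EVI1-WT cells USP1 was higher (1 of 7, against 7.44%) and PARP1 lower (1 of 7, against 7.23%, or 14.7% in either direction), and in EVI1-AQA cells RPA2 was higher (1 of 7, against 9.02%, or 17.7% in either direction). The PARP1 difference of -0.27 had an unadjusted limma p of 0.0411, and of 0.0614 with the replicate block. Leaving out the 3 libraries brought PARP1 to 0.0502 on the same measure and EXO1 in EVI1-WT cells, with a difference of 0.46, to 0.0236. The limma differences for EXO1 were 0.53 in untransfected (adjusted p = 0.147), 0.53 in empty vector (0.108), 0.35 in EVI1-WT (0.348) and 0.31 in EVI1-AQA cells (0.358), the last of which was 0.18 without the 3 libraries.

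ORC1 (ENSG00000085840, 52372829 to 52404423, minus strand) was the only gene of the 7 called in an EVI1 comparison. The call was for EVI1-AQA in untreated cells, and the replicate block ended it. In untreated cells its values were -0.34, -0.21 and -0.71 without transfection and -0.50, -0.41 and -0.39 with empty vector. With EVI1-WT they were 0.016, 0.18 and 0.32, and with EVI1-AQA 0.35, 0.33 and 0.26. All 6 untreated libraries with an EVI1 construct lay above all 6 without, which held for 1 of the 7 genes in this direction and for 1.89% of all rows. ORC1 rose with EVI1-AQA over empty vector by 0.75 on the log2 scale (SE 0.13, limma adjusted p = 0.0312, a ratio of 1.68), with differences of 0.85, 0.74 and 0.65 in the 3 batches. It was 1 of the 7 genes called, where 10 of all rows (0.0864%) were, 5 of them higher (0.0432%). At an unadjusted limma p under 0.05, ORC1, DTL and EXO1 were higher, 3 of the 7 beside 14.9% of all rows. The unadjusted limma p of EXO1 went from 0.0448 to 0.0608 with the block. With the replicate block the adjusted ORC1 call was lost (limma adjusted p = 0.108), and 0.0% of all rows were called. The ORC1 call was also lost when any one replicate was left out (adjusted p from 0.119 to 0.371). With EVI1-WT the difference was 0.60 (SE 0.13), or 0.52, 0.59 and 0.71 by batch, and did not pass (unadjusted p = 0.00018, limma adjusted p = 0.336). In that comparison 0 of all rows passed (0.0%), and 7.09% had an unadjusted p under 0.05. The EVI1-AQA and EVI1-WT differences use the same 3 empty vector libraries. EVI1-AQA and EVI1-WT themselves differed by 0.14 (SE 0.13, adjusted p = 0.998), and empty vector and untransfected cells by -0.014 (SE 0.13, adjusted p = 0.976).

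With H2O2 the ORC1 values of cells without EVI1 were above those of untreated cells in every batch. They were -0.018, -0.012 and -0.13 without transfection and -0.064, 0.017 and 0.0041 with empty vector, beside 0.30, -0.029 and 0.45 with EVI1-WT and 0.26, 0.13 and 0.19 with EVI1-AQA. The EVI1-AQA values stayed above all 6 values of cells without EVI1, a separation whose share over all rows was not counted. The EVI1-WT library of batch 2 lay among the 6. That library, the EVI1-AQA library of batch 1 and the empty vector library of batch 2 are the 3 that departed from their labels. With H2O2, both constructs together lay above all cells without EVI1 in 0 of the 7 genes and in 0.397% of all rows. The difference from empty vector was 0.26 (SE 0.13, limma adjusted p = 0.998) with EVI1-WT, or 0.41 without the 3 libraries (unadjusted p = 0.0173, adjusted p = 0.550), and 0.21 (SE 0.13, adjusted p = 0.680) with EVI1-AQA. ORC1 responses to H2O2 were 0.37 in untransfected, 0.42 in empty vector, 0.071 in EVI1-WT and -0.12 in EVI1-AQA cells, each with an SE of 0.13. The EVI1-WT response was 0.21 without the 3 libraries. Averaged over untreated and treated cells, ORC1 differed from empty vector by 0.43 with EVI1-WT (SE 0.094, limma adjusted p = 0.184) and by 0.48 with EVI1-AQA (adjusted p = 0.0996), higher in 5 and in 6 of 6 pairs. Without the 3 libraries the difference with EVI1-WT was 0.51 (adjusted p = 0.0497). Shares of all rows for these pair counts were not counted. At an unadjusted limma p under 0.05, ORC1 was higher with EVI1-WT in this average (1 of 7, beside 8.19% of all rows), and ORC1, DTL and EXO1 were higher with EVI1-AQA (3 of 7, beside 9.89%), where 0.0% and 0.0345% of all rows passed the adjusted test. In the EVI1-AQA average, ORC1 alone was under the unadjusted threshold without the 3 libraries, where DTL had an unadjusted limma p of 0.128 and EXO1 of 0.216. With the block EXO1 had 0.0617. Ordered by mean, the 8 groups ran from empty vector untreated (-0.43 ± 0.061, SD, n = 3) and untransfected untreated (-0.42 ± 0.26), through untransfected with H2O2 (-0.053 ± 0.066) and empty vector with H2O2 (-0.014 ± 0.044), to EVI1-WT untreated (0.17 ± 0.15), EVI1-AQA with H2O2 (0.19 ± 0.063), EVI1-WT with H2O2 (0.24 ± 0.25) and EVI1-AQA untreated (0.31 ± 0.046). In this order only the step from untransfected untreated to untransfected with H2O2 separated neighbours without overlap, and empty vector with H2O2 and EVI1-WT untreated overlapped by 1 library of each.

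**Figure D2:**
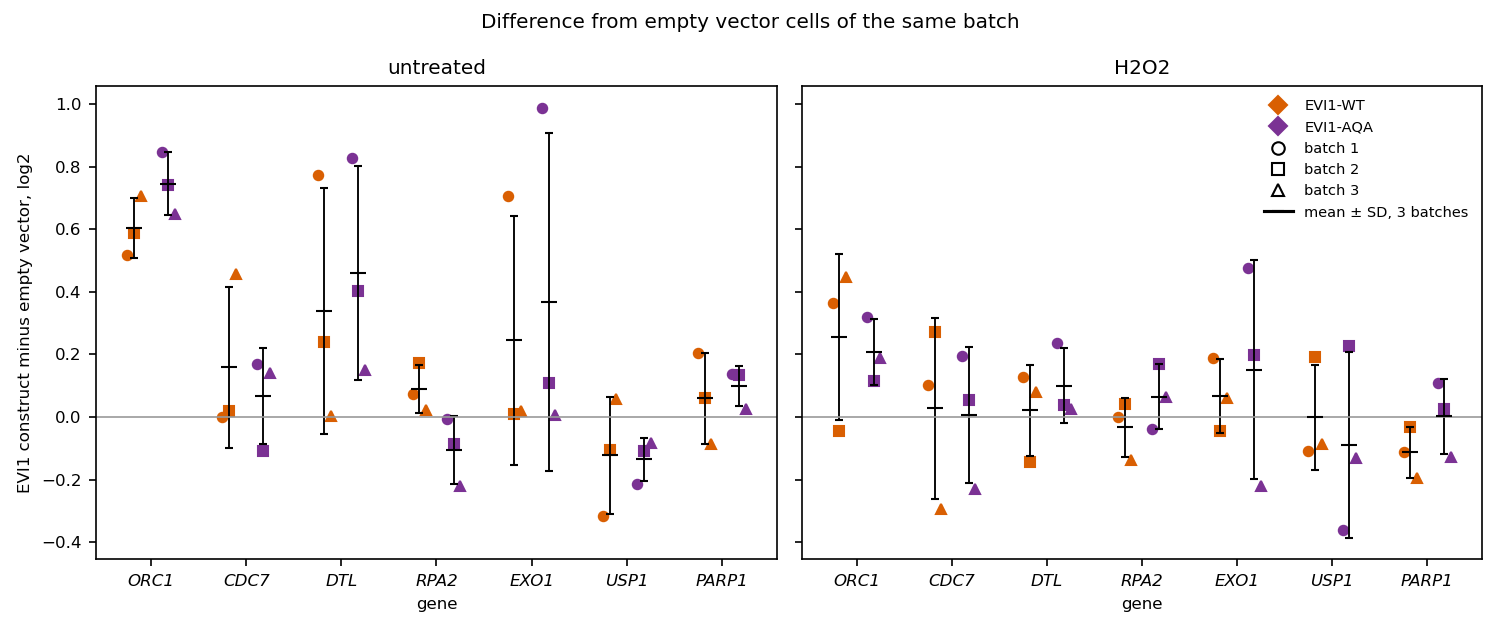
EVI1 construct minus empty vector log2 value of the same batch for the 7 genes, in untreated cells and with H2O2, with the mean ± SD of 3 batches. Untreated ORC1 differences lie between 0.52 and 0.85 in every batch with either construct.

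The other 6 genes showed no called difference with EVI1. DTL was higher with EVI1-AQA than with empty vector in untreated cells by 0.46 (SE 0.17, unadjusted p = 0.0156, limma adjusted p = 0.222), with batches at 0.83, 0.40 and 0.15, and its values did not overlap. With EVI1-WT the DTL difference was 0.34 (adjusted p = 0.751). The EXO1 difference with EVI1-AQA, 0.37 (adjusted p = 0.325), came from batch 1 (0.99), with 0.11 and 0.0070 in batches 2 and 3. The untreated empty vector library of batch 1, the lowest of all 24 for both DTL and EXO1, enters each of these batch 1 differences. Not overlapping with empty vector in untreated cells were ORC1 and RPA2 with EVI1-WT, both higher (2 of 7, against 7.31% of all rows), and with EVI1-AQA DTL and ORC1 higher (2 of 7, against 11.2%) and USP1 lower (1 of 7, against 10.7%). The RPA2 difference with EVI1-WT was 0.090 (adjusted p = 0.912) and the USP1 difference with EVI1-AQA -0.14 (adjusted p = 0.636). With H2O2, 0 of the 7 genes passed for either construct, where 0 (0.0%) of all rows did for EVI1-WT and 2 (0.0173%) for EVI1-AQA, and 0 of the 7 had an unadjusted limma p under 0.05, beside 4.67% and 9.15% of all rows. Between EVI1-AQA and EVI1-WT 0 of the 7 passed either test, adjusted or unadjusted, in untreated cells (0.0% of all rows adjusted, 4.77% unadjusted) or with H2O2 (0.0173% and 10.5%). Empty vector against untransfected cells gave 0 adjusted and 0 unadjusted calls among the 7 in untreated cells (0.147% and 14.7% of all rows) and with H2O2 (0.0% and 11.0%). Averaged over treatments, 0 passed the adjusted test (2.28% of all rows) and at the unadjusted threshold USP1 alone was lower with empty vector (-0.20, 1 of 7, beside 20.8% of all rows). The unadjusted USP1 p of 0.0324 was 0.0503 with the block and 0.115 without the 3 libraries. With H2O2, CDC7 had the largest difference of the 7, -0.39 (SE 0.20, adjusted p = 0.478).

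The H2O2 responses of the transfection states were also set against each other. Between EVI1-WT and empty vector cells 0 of the 7 responses differed at an adjusted or an unadjusted limma p under 0.05 (0.0% and 3.41% of all rows). Between EVI1-AQA and empty vector cells ORC1 alone differed at the unadjusted threshold (1 of 7, beside 14.2%), and between EVI1-AQA and EVI1-WT cells RPA2 alone did (1 of 7, beside 9.78%), with an unadjusted limma p of 0.0469 that was 0.0748 with the block. Neither passed the adjustment over all rows, which 0.406% and 0.0% of rows did.

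Some other replication and repair genes on chromosome 1 were called in the average H2O2 response, in both directions. Of a list of 20, 18 had a row. Averaged over transfection states 4 rose, 1 fell and 13 did not pass, where 8.9% of all rows rose and 7.63% fell. Those that rose were DCLRE1B (Apollo, a nuclease of crosslink repair and telomeres, 0.48, SE 0.065, limma adjusted p = 0.000139), the damage-inducible GADD45A (1.00, SE 0.23, adjusted p = 0.00617), the S-phase activator E2F2 (0.43, SE 0.11, adjusted p = 0.0103) and SDE2, a PCNA-associated fork protein (0.31, SE 0.092, adjusted p = 0.0249). SDE2 did not pass without the 3 libraries (0.27, adjusted p = 0.0744), which left 3 that rose. CHD1L, a chromatin remodeller recruited by PARP activity, fell by 0.24 (SE 0.068, adjusted p = 0.0201). The median over the 18 was 0.043, and CLSPN, which carries the checkpoint signal at forks, was at 0.14 (adjusted p = 0.438), or 0.24 without the 3 libraries (adjusted p = 0.180). Of 11 such genes on chromosome X, all with a row, 0 rose, 1 fell and 10 did not pass, beside the same shares of all rows. HUWE1, a large ubiquitin ligase, fell by 0.33 (SE 0.079, limma adjusted p = 0.00806). Among those that did not pass was the polymerase alpha subunit POLA1 (-0.21, adjusted p = 0.227). In the EVI1 comparisons 0 genes of either list were called. The one other call among the comparisons by state was DCLRE1B, higher in untransfected cells with H2O2 (0.62, adjusted p = 0.0488) and, averaged over treatments, with empty vector over untransfected (0.36, adjusted p = 0.0446), and both calls were lost with the block (adjusted p = 0.115 and 0.0954) and without the 3 libraries (0.0528 and 0.125).

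**Figure D3:**
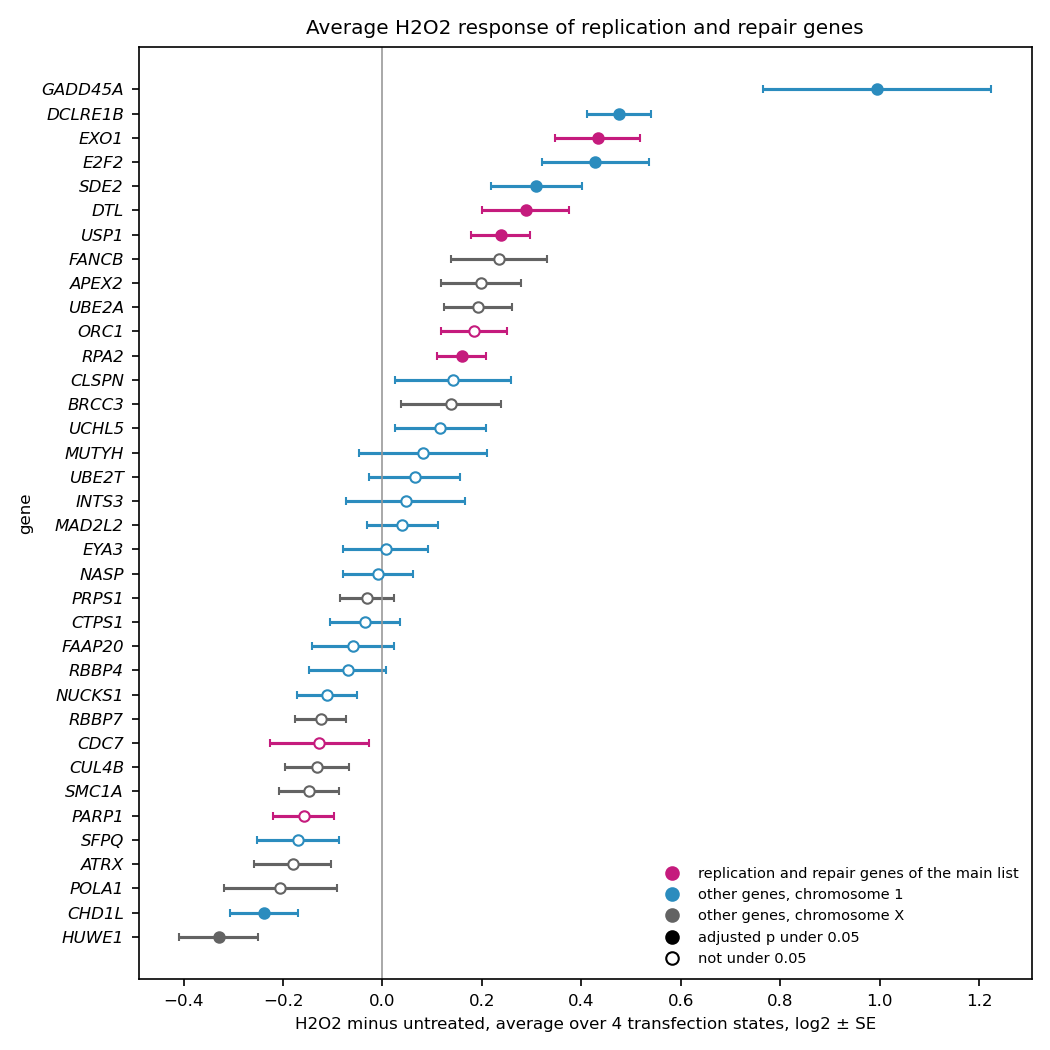
Average H2O2 minus untreated log2 difference ± SE for the 7 genes and the other genes of both wider lists, ordered by size, with filled points at a limma adjusted p under 0.05. GADD45A (1.00) and DCLRE1B (0.48) lie above EXO1 (0.43), and HUWE1 (-0.33) is at the other end.

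Genes known to respond to oxidative or genotoxic stress were read as a check of the exposure, and 2 of 6 rose, where 8.9% of all rows did. These were GADD45A, already given, and the stress transcription factor ATF3 (0.54, SE 0.16, limma adjusted p = 0.0241), while JUN, BTG2, GCLM and PRDX1 did not pass (-0.027, 0.35, 0.063 and 0.028). Of the 6, GADD45A alone passed without the 3 libraries, ATF3 had 0.56 (adjusted p = 0.0574) and BTG2 0.18. Both were uneven across batches. GADD45A differed by 2.19, 0.59 and 0.21 in batches 1, 2 and 3, and ATF3 by 1.19, 0.49 and -0.057. Batch 1 was also the batch with the largest EXO1, DTL (0.48, 0.17 and 0.22) and USP1 (0.37, 0.21 and 0.14) differences, whereas RPA2 was even (0.18, 0.15 and 0.15). The part of the batch in these results was not tested.

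The 7 genes did not vary as one. Over the 24 libraries, which share groups and batches, EXO1 and DTL had a Pearson correlation of 0.862, USP1 and RPA2 of 0.70, ORC1 and DTL of 0.582 and ORC1 and EXO1 of 0.555. PARP1 was negatively correlated with all 6 others, from -0.45 with RPA2 to -0.061 with CDC7, and CDC7 stayed between -0.076 and 0.172 with the other 5. Among 1540 rows labelled with genes of chromosomes 1 and X, EXO1 was most like DTL and then EPHA2 (0.84), an ephrin receptor. USP1 was most like ATF3 (0.817), followed by the row labelled RP11-284F21.9 (0.788). ORC1 was most like TMEM59 (0.837), a Golgi membrane protein gene, and RRAGC (0.828), a GTPase of amino acid signalling to mTORC1. These correlations describe 24 libraries, with EXO1, USP1 and ORC1 taken because the F-test called them.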

How the data were processed

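RNA of 24 HEK293 libraries, 8 groups of 3, was sequenced by the authors with the Lexogen QuantSeq 3′ kit and analysed with Ensembl GRCh38 annotation (release 90) in Qlucore Omics Explorer, where transcripts had to reach an FPKM of 10. The aligner was not given in the sources used here. The deposited table holds log2 values after the authors' normalization. That the base is 2 was inferred from the values, and every row has a mean of 0 in each batch of 8 (largest departure 4.5e-06). Depth is unknown, so no counting error could be given. Genes below the cut-off have no row, and a centred value cannot show a low level.

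Groups and batches came from the labels. limma 3.58.1 in R 4.3.3 fitted 8 group means over all 11579 rows, and 19 contrasts and an F-test were adjusted by Benjamini-Hochberg over all rows. The fit had 16 residual degrees of freedom, part of which the centring had already used, so its p-values are too small, and the fit with the replicate block had 14. The labels call a replicate number a batch, which pairs the samples. Deviations from group means correlated by -0.14 on average between same-numbered samples (84 pairs) and by 0.0702 otherwise (168 pairs), and the centring fixes the first near that value. Blocked values are given where they end an adjusted or an unadjusted call. In a single simulated set, the fit without the block made more false calls than its threshold allows, and the fit with the block did not. Smaller changes and correlated rows were not simulated, so the set does not show how either fit performs on these data. Identifiers of 94.1% of rows were in GENCODE release 44, which gave the positions.

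The 8 genes, the wider lists and the tests were chosen with earlier results of these data known. All 7 genes with a row are named, genes of the wider lists if their adjusted p was under 0.05 in the average H2O2 response or an EVI1 comparison, and CLSPN and POLA1 were added after their values were seen. For genes called by the F-test, the 2 most correlated rows of chromosomes 1 and X are named. Alternatives were the block, leaving out each replicate, leaving out 3 libraries, median centring, quantile normalization, the compared groups alone without moderation, and rows of chromosome 1 alone.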

Additional observations from a re-analysis of the deposited data

Results flagged for a closer look

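The ORC1 response to H2O2 differed between EVI1-AQA and empty vector cells by -0.54 (SE 0.19) at an unadjusted limma p of 0.00948 and an adjusted p of 0.193, and was lower with EVI1-AQA in all 3 batches (-0.53, -0.63 and -0.46). The response itself was -0.12 with EVI1-AQA and 0.42 with empty vector. Without the 3 libraries that departed from their labels, the difference was -0.55 (adjusted p = 0.259).

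The RPA2 response differed between EVI1-AQA (0.31) and EVI1-WT cells (0.017) by 0.293 (SE 0.14), at an unadjusted limma p of 0.0469 and an adjusted p of 0.504. It was higher with EVI1-AQA in 3 of 3 batches, by 0.046, 0.39 and 0.45. With the block the unadjusted p was 0.0748. The difference was 0.35 without the 3 libraries (adjusted p = 0.399), from responses of 0.36 and 0.0056. Neither difference passed the adjustment over all rows. Groups of 3 are too small for a search for single outlying libraries.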

How the results depend on the processing

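Over 27 results on single genes, 221 values under the alternatives kept their direction and their side of the threshold, 8 newly passed it, 14 no longer passed it and 0 changed direction. Most of the 27 did not pass in the main fit, so most of the 221 stayed uncalled. All 14 losses fell on the calls of DTL, USP1, RPA2 and ORC1, 11 of them on leaving out a replicate. Over 24 counts of called genes, 165 values stayed within 1.5 times and 17 did not. The number of genes called by the F-test, 3, was 1 with the replicate block and 0 to 0 leaving out a replicate. The number called in the average H2O2 response, 4, was 1 to 2 leaving out a replicate. EXO1 passed each time, and the others had adjusted p-values of up to 0.244 (DTL without replicate 1), 0.173 (USP1 without replicate 1) and 0.191 (RPA2 without replicate 1). For EVI1-AQA against empty vector in untreated cells, the count of 1 (ORC1) was 0 with the block, 0 to 0 leaving out a replicate, and 0 in the compared groups alone (adjusted p = 0.279). Counts of 0 were 1, each time ORC1, for H2O2 in empty vector cells with quantile normalization (adjusted p = 0.0418), for EVI1-WT averaged over treatments without the 3 libraries (0.0497), and for EVI1-AQA averaged over treatments with quantile normalization (0.0251), in the compared groups alone (0.0038) and with rows of chromosome 1 only (0.0288). In the average H2O2 response PARP1 also passed with quantile normalization (0.0430) and, like ORC1, without moderation (0.0450). The cause of these changes was not tested, other than that leaving out libraries leaves fewer samples. Apart from the calls of ORC1, RPA2 and DCLRE1B, the F-test calls of EXO1 and USP1 and the unadjusted calls for which a blocked p is given above, the replicate block changed no call reported here. Leaving out a replicate was not run for the tests of 6 pairs. Without depth, no count error limits can be set.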
